A study of Mus musculus with 4 samples.

Results

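Immunoglobulin chain transcripts, the J chain gene Jchain and the polymeric immunoglobulin receptor gene Pigr were followed in mouse kidney over 4 groups. Members were the probe sets whose platform symbol is Jchain or Pigr, or begins with Ighm, Igha, Ighg, Ighv, Igkc, Igkv, Iglc or Iglv. This choice gave 28 of 19324 gene symbols, read by 58 of 45101 probe sets. The 58 comprised 1 probe set for Jchain, 2 for Pigr, 23 for heavy chains, 24 for kappa and 4 for lambda light chains. The remaining 4 probe sets carry the symbol Ighmbp2, a helicase gene whose name begins like a member and which encodes no immunoglobulin, so 54 were described further. Of the 58, 13 list several immunoglobulin symbols and are called by their chain only. The set was chosen by measured values: earlier results of these same arrays had shown Pigr lower with diabetes, and Jchain and kappa signals that differed between the groups. All values below are therefore descriptions without a test.

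Each group was 1 array of kidney RNA pooled from 4 female mice of the FVB/NJ strain, aged 4.5 months. The nondiabetic sham and nondiabetic uninephrectomy groups were control littermates. The diabetic sham and diabetic uninephrectomy groups were OVE26 transgenic mice, which become diabetic early in life because a calmodulin transgene driven by an insulin promoter damages their beta cells. At 2 months of age the mice had 1 kidney removed (uninephrectomy) or a sham operation, and kidneys were perfused with saline and collected 10 weeks later. Where 4 signals follow each other below, they stand in 1 fixed order: nondiabetic sham, nondiabetic operated, diabetic sham, diabetic operated. With 1 pool per group no spread between animals was measured, and the precision is limited by there being 4 arrays.

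Plasma cells are the antibody-secreting end stage of the B cell lineage, and their most abundant transcripts encode a heavy chain, a light chain and, in cells making IgA or IgM, the J chain. J chain links IgA into dimers and IgM into pentamers. The receptor encoded by Pigr sits on the basolateral side of epithelial cells, binds such J chain-containing polymers and carries them to the lumen, where its cut extracellular part stays attached as secretory component. In the kidney this receptor is known from tubular epithelium, and secretory IgA is found in urine.

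The start regions of the 2 genes are shown because the plasma cell and the epithelial transcripts followed different courses over the groups. Of 28 symbols among the members, Jchain, Pigr and Ighmbp2 had a RefSeq promoter window in GRCm38.p6, which runs from 250 bases before to 50 bases after the start. The Pigr window is chr1:130826434-130826733 on the plus strand, and the Jchain window is chr5:88527848-88528147 on the minus strand. Capitals mark a CACGTG E-box, a motif of the USF family of transcription factors. The windows were searched on both strands for this E-box and for the octamer ATGCAAAT of immunoglobulin promoters.
Pigr: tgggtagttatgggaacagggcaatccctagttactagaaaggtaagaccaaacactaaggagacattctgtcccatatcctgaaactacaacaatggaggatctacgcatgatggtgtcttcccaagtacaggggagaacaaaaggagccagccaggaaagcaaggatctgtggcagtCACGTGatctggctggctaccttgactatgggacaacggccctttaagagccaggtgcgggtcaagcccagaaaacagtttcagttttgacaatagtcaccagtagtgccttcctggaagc
Jchain: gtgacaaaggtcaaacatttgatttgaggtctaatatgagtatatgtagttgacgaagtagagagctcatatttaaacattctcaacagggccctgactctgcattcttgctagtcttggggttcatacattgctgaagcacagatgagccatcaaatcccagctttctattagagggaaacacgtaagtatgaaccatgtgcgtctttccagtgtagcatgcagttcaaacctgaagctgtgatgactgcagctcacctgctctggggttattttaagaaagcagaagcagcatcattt
The Pigr window held 1 E-box, 71 to 66 bases before the start, and no octamer, and the Jchain window held neither. Among all 32851 windows 7.15% held the E-box and 1.74% the octamer. A match is a description of the letters and shows no binding.

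Intensities were set on the log2(signal + 26.4) scale, and a probe set is called expressed if it averaged at least 7.06 on that scale, the midpoint of the averages of all 45101 probe sets. Counts at 2-fold use differences of at least 1 on this scale, on which dim probe sets differ less than in their signal ratios. The median signal of the 4 arrays lay between 106.8 and 119.3. Markers of the labelled tissue were present: all 13 proximal tubule genes had signals of at least 3172 on every array, and all 5 podocyte genes had at least 147.7. Control probe sets for 18S ribosomal RNA had a signal 1.02-fold that of the nondiabetic sham array on the nondiabetic uninephrectomy array, 1.32-fold on the diabetic sham array and 1.88-fold on the diabetic uninephrectomy array. Their part in the results below was not tested. After the filter 14 of the 54 probe sets were expressed: Jchain, both for Pigr, 3 for the IgA heavy chain gene Igha, 4 for the IgM heavy chain gene Ighm, and 4 for kappa chains. The other 40, all of them immunoglobulin probe sets, stayed below it. Of the 14 expressed probe sets, 10 carry the suffix a, s or x in their identifiers, which the manufacturer gives to probe sets that can match more than 1 transcript, so immunoglobulin probe sets can read the same RNA and are not separate measurements.

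**Figure D1:**
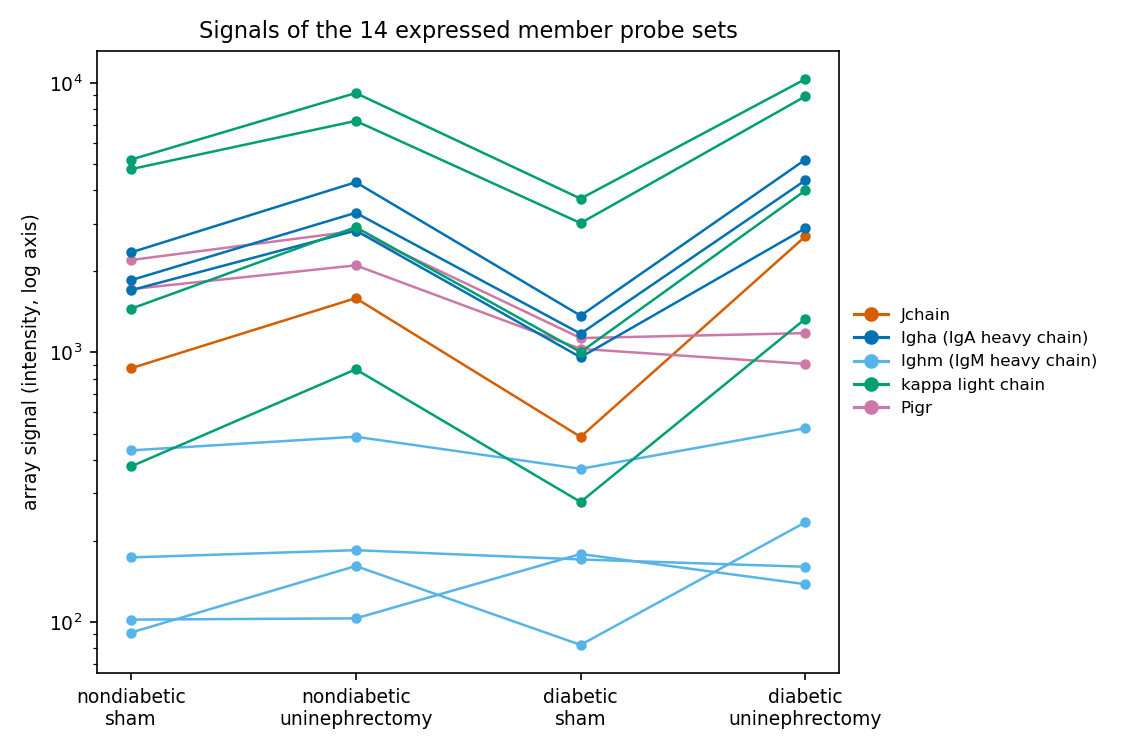
Array signal (intensity, log axis) of the 14 expressed probe sets in the 4 groups, 1 pooled array each, coloured by gene or chain. Jchain, Igha and kappa lines are lowest on the diabetic sham array and highest on the diabetic uninephrectomy array, while both Pigr lines lie lower on both diabetic arrays.

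Jchain was highest in kidneys of diabetic uninephrectomised mice and lowest in those of diabetic sham mice. Its signal was 873.8 in nondiabetic sham, 1591.1 in nondiabetic uninephrectomy, 486 in diabetic sham and 2699.9 in diabetic uninephrectomy mice. The operated arrays thus both lay above the sham arrays. After uninephrectomy the Jchain signal was 1.82-fold that of sham mice without diabetes and 5.55-fold with diabetes, which is a log2 difference of 0.84 and 2.41. Of the 19910 expressed named probe sets only 9 had a larger difference than Jchain between the diabetic arrays. With diabetes Jchain was lower among sham mice (log2 difference -0.81) and higher among uninephrectomised mice (0.75). The sham and the operated arms of diabetes have no array in common, whereas each arm of diabetes shares arrays with each arm of surgery. In these pooled samples, more plasma cells and more RNA per plasma cell cannot be told apart.

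The IgA heavy chain followed the same order of groups on all 3 of its probe sets. The probe set 1421653_a_at had signals of 2352.2 in nondiabetic sham, 4288.1 in nondiabetic uninephrectomy, 1369.9 in diabetic sham and 5204 in diabetic uninephrectomy mice. The second, 1425763_x_at, read 1855.2, 3301.9, 1174.6 and 4361.4 in the same order of groups, and the third, 1429381_x_at, read 1702.6, 2835.9, 960 and 2893. On each of them both operated arrays lay above both sham arrays. Uninephrectomy went with ratios of signal between 1.67 and 1.82 in nondiabetic and between 3.01 and 3.80 in diabetic mice. Among sham mice the diabetic array was lower, at 0.564 to 0.633 of the nondiabetic signal. Among uninephrectomised mice the ratio of diabetic to nondiabetic was 1.02 to 1.32, a smaller excess than the 1.70 of Jchain.

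Kappa light chains, which pair with most mouse heavy chains, gave the brightest immunoglobulin signals. The probe set of the variable segment Igkv8-30 read 377.3 in nondiabetic sham, 866 in nondiabetic uninephrectomy, 278.6 in diabetic sham and 1334.7 in diabetic uninephrectomy mice. Its signal ratio with uninephrectomy was 2.29 in nondiabetic and 4.79 in diabetic mice. On the log2(signal + 26.4) scale it had 1.14 in nondiabetic mice and was the only expressed member at least 2-fold higher there, while kappa probe set 1427455_x_at stayed just below at 0.99 with a signal ratio of 2.01. The other 3 expressed kappa probe sets each list the same 5 symbols, among them the kappa constant region, and so can share targets with it. The brightest, 1427660_x_at, had signals of 5200.9, 9192.2, 3725.8 and 10359.8. The next, 1452417_x_at, had 4793.9, 7243, 3023 and 8940.6. The dimmest of the 3, 1427455_x_at, had 1453, 2920.7, 1003.1 and 3997.6. All 4 kappa probe sets were lowest on the diabetic sham array and highest on the diabetic uninephrectomy array. Their log2 differences with uninephrectomy ranged from 0.59 to 1.14 in nondiabetic and from 1.47 to 2.16 in diabetic mice.

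IgM heavy chain probe sets did not share this course with each other. Of 11 probe sets for Ighm, 4 were expressed. The brightest, 1427870_x_at, read 433, 486.7, 369.9 and 523.4 over the 4 groups, the same order as Jchain with smaller differences. Probe set 1425247_a_at read 91.2, 161.1, 82.1 and 234.2 in that order, and it passed the expression filter only through the operated arrays. Its log2 difference of 1.26 with uninephrectomy in diabetic mice was the single value past 2-fold among these 4 probe sets. Probe set 1427351_s_at stayed between 160.1 and 184.5 on the 4 arrays, and 1452535_at was highest in diabetic sham mice at 178.5. Ighm therefore had log2 differences from -0.32 to 1.26 with uninephrectomy in diabetic mice, depending on the probe set.

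The other members were dim. Over the 40 unexpressed immunoglobulin probe sets the signals ran from 0.3 to 175.7, with medians of 20.1 in nondiabetic sham, 30.3 in nondiabetic uninephrectomy, 25.8 in diabetic sham and 31.8 in diabetic uninephrectomy mice. All 4 probe sets for Ighg3, an IgG heavy chain gene, and all 4 lambda light chain probe sets were among them. The filter separated Ighm probe set 1452535_at just inside (mean log2 value 7.26) from Ighm probe set 1427329_a_at just outside (7.056). The signals of the latter lay between 80.5 and 132.4.

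Differences of at least 2-fold among the 14 expressed probe sets were found mainly with uninephrectomy in diabetic mice. With uninephrectomy in diabetic mice 9 were higher and 0 lower, where 1.27% of all expressed named probe sets were higher and 0.688% lower. These 9 were Jchain, the 3 for Igha, the 4 for kappa chains and 1 for Ighm, which passed the filter only through the operated arrays. With uninephrectomy in nondiabetic mice 1 was higher and 0 lower, beside 0.743% and 0.653% of all, although all 14 had a difference above 0. With diabetes in uninephrectomised mice 0 were higher and 2 lower, beside 1.76% and 1.04%, and both were Pigr. With diabetes in sham mice 0 passed 2-fold in either direction, beside 0.718% higher and 0.613% lower, and 13 of the 14 had a difference below 0. Since the members were chosen with these contrasts in view, nothing is read from these counts. Over all 54 probe sets without a filter 13 were higher and 4 lower with uninephrectomy in diabetic mice, beside 3.36% and 4.85% of all named probe sets. The corresponding numbers were 7 and 1 with uninephrectomy in nondiabetic mice (beside 4.91% and 2.60%), 3 and 5 with diabetes in uninephrectomised mice (3.54% and 5.25%), and 4 and 3 with diabetes in sham mice (4.76% and 2.79%). Over the 11 expressed immunoglobulin probe sets the median log2 difference with diabetes was -0.48 (sham arm) and 0.30 (operated arm). With uninephrectomy it was 0.73 without and 1.56 with diabetes. The medians over all expressed probe sets lay between -0.013 and -0.005.

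**Figure D2:**
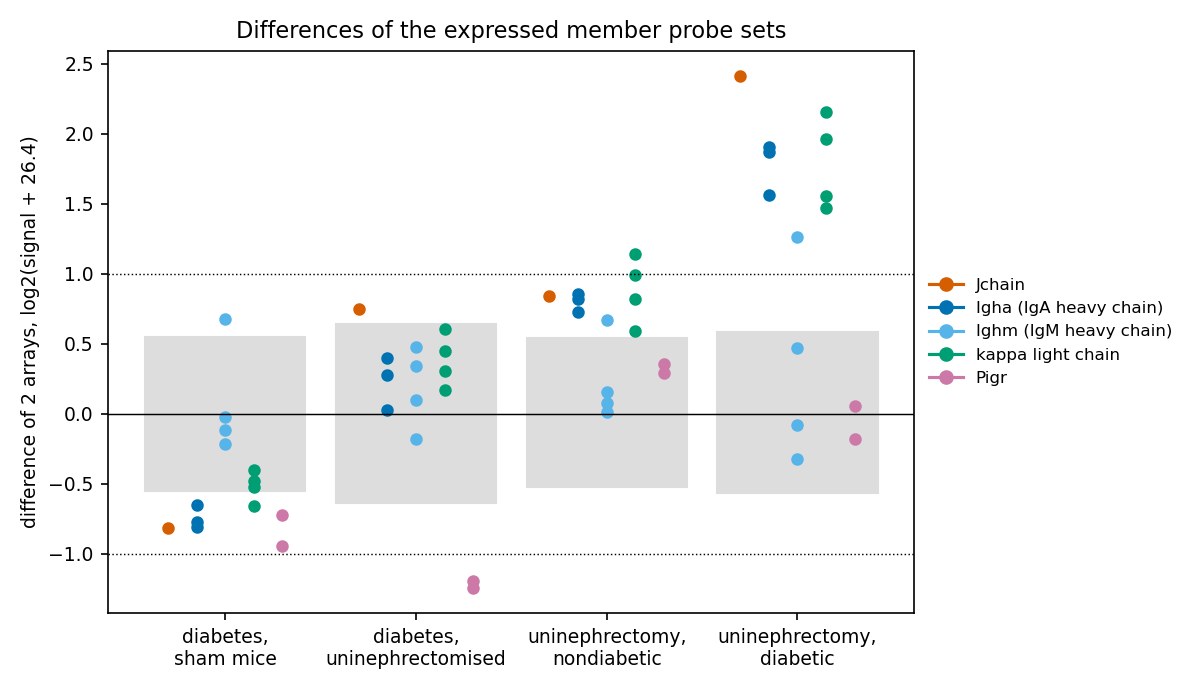
Log2 difference between 2 arrays for each expressed probe set in the 4 comparisons, coloured by gene or chain. The grey boxes span the 5th to the 95th percentile over all 19910 expressed probe sets and dotted lines mark 2-fold. Jchain, Igha and kappa points lie between 1.47 and 2.41 with uninephrectomy in diabetic mice, while both Pigr points lie near 0 there and near -1.2 with diabetes in uninephrectomised mice.

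Pigr, the epithelial receptor, was lower in both diabetic groups and differed less with surgery than with diabetes. Probe set 1455490_at read 2204.3 in nondiabetic sham, 2825.8 in nondiabetic uninephrectomy, 1131.4 in diabetic sham and 1180 in diabetic uninephrectomy mice. Probe set 1450060_at read 1718.4, 2106.5, 1031.5 and 907.2 in the same groups. On both probe sets each diabetic array lay below each nondiabetic array. The ratio of diabetic to nondiabetic signal was 0.513 and 0.600 among sham mice and 0.418 and 0.431 among uninephrectomised mice. In log2 terms the brighter probe set differed by -0.95 and -1.24 in these arms. Uninephrectomy went with ratios of 1.28 and 1.23 in nondiabetic mice, and of 1.04 and 0.880 in diabetic mice, where the probe sets disagreed in sign.

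Pigr and Jchain were then compared within each array. Set against Jchain on the same array, the log2 value of Pigr (brighter probe set) shifted by -0.13 with diabetes among sham mice, where both transcripts were lower, and by -1.99 among uninephrectomised mice, where Jchain was higher and Pigr lower. With uninephrectomy the shift was -0.49 in nondiabetic and -2.35 in diabetic mice. Against Igha in place of Jchain the 4 shifts were -0.18, -1.52, -0.51 and -1.85. A ratio within an array shows unequal change and does not tell which of the pair changed. Between the outermost groups, diabetic uninephrectomy and nondiabetic sham, the signal ratio was 3.09 for Jchain, 2.21 for the brightest Igha probe set, 3.54 for Igkv8-30 and 0.535 for Pigr.

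Each gene was also compared with the other 11196 expressed genes, by the Euclidean distance between log2 values centred on the gene's mean over the 4 arrays. The genes closest to Jchain were Igkv8-30 (distance 0.31), Igha (0.42), Niban3, known from B cells (0.58), the neutrophil chemokine gene Cxcl1 (0.66) and Igk (0.76), a kappa locus symbol that the rule does not hold. Niban3 and Igk passed the expression filter only through the operated arrays. Niban3 had signals of 88.9, 202.2, 42.6 and 206.4. Cxcl1 had 430.5, 566.5, 256.3 and 832.9. Pigr ranked 8778th by closeness to Jchain, at a distance of 2.00. Closest to Pigr were Abcb1a, an efflux pump gene (0.17), 2900052L18Rik (0.22), the noradrenaline transporter gene Slc6a2 (0.24), Cyp4b1 (0.24) and Gm6958 (0.25). Of these, 2900052L18Rik and Slc6a2 passed the filter only through the nondiabetic arrays. Abcb1a had signals of 449.6, 609.6, 217.9 and 268.9. With 4 values per gene such distances describe these arrays and nothing more.

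Among the expressed genes listed for plasma cells and antibody secretion, no log2 difference with uninephrectomy in diabetic mice came near the 2.41 of Jchain. The farthest from 0 was 0.94. Of these genes Xbp1, Ell2, Txndc5 and Creld2 had signals of at least 1328.9 on every array. The part of plasma cells in such signals was not tested, so the list cannot tell whether plasma cell RNA differed. Of 16 listed plasma cell and antibody secretion genes 15 were measured and 9 expressed, and 0 of the 9 passed 2-fold on the log2(signal + 26.4) scale in any of the 4 comparisons. Among the expressed genes of the array 0.786% were at least 2-fold higher and 0.447% lower with diabetes in sham mice, 2.14% and 1.03% with diabetes in uninephrectomised mice, 0.661% and 0.518% with uninephrectomy in nondiabetic mice, and 1.48% and 0.661% with uninephrectomy in diabetic mice. The list medians were -0.17 and -0.05 with diabetes (sham, then uninephrectomised) and -0.11 and 0.10 with uninephrectomy (nondiabetic, then diabetic), beside medians over all expressed genes between -0.02 and 0.01. Xbp1, the transcription factor of the secretory program, read 12512.8, 12308, 11085.8 and 11697.7 over the 4 groups, and it is also expressed in many epithelia. Sdc1, the surface proteoglycan CD138 that plasma cells share with epithelium, read 327.6, 294.9, 267.6 and 538. Its signal ratio with uninephrectomy in diabetic mice was 2.01, and its log2 difference of 0.94 lay just under 2-fold. Mzb1, an endoplasmic reticulum chaperone cofactor of antibody-secreting cells, read 131.7, 170.1, 158.8 and 182.1. Derl3, of the degradation machinery of the endoplasmic reticulum, was lowest in diabetic uninephrectomy mice at 186.7, beside 354.1 to 395.3 elsewhere, with a signal ratio of 0.497 and a log2 difference of -0.92 with uninephrectomy in diabetic mice. With diabetes in uninephrectomised mice Sdc1 had a log2 difference of 0.81 and Derl3 of -0.84, beside 0.75 for Jchain. Ell2, the elongation factor that favours secretory heavy chain transcripts, lay between 2089 and 2776, and Creld2, a chaperone gene, between 1329 and 1841. Regulators and receptors of plasma cells were among the 6 unexpressed genes: Prdm1 read 63.8 to 120.9, Irf4 15.2 to 67.8, Tnfrsf17 9.5 to 52.5 and Tnfrsf13b 2.2 to 65. These 6 dim genes went both ways with uninephrectomy in diabetic mice. Log2 differences were 1.68 for Tnfrsf13b and 1.24 for Slamf7. They were -0.43 for Irf4, -0.54 for Prdm1, -0.61 for Pou2af1 and -0.77 for Tnfrsf17.

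Markers of B cells before the plasma cell stage were almost all below the filter. Of 16 listed genes 14 were measured and 1 was expressed, Blnk, an adaptor of B cell receptor signalling, which read 1582.1, 1537.2, 998.8 and 1928.7. As all other measured genes of the list lay below the filter, these values cannot be assigned to B cells. The cell source of the Blnk signal was not tested. The B cell receptor subunit gene Cd79a read 8.1 to 40.8, and the surface antigen gene Ms4a1, which encodes CD20, read 18.5 to 99.6. Pax5, the lineage factor that plasma cells switch off, read 33.1 to 135.1. The summed signal of the 14 genes was 2304 in nondiabetic sham, 2577 in nondiabetic uninephrectomy, 1743 in diabetic sham and 2674 in diabetic uninephrectomy mice, and most of each sum was Blnk. No listed T or NK cell gene of the 11 measured was expressed, and their sums lay between 391.1 and 660.

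**Figure D3:**
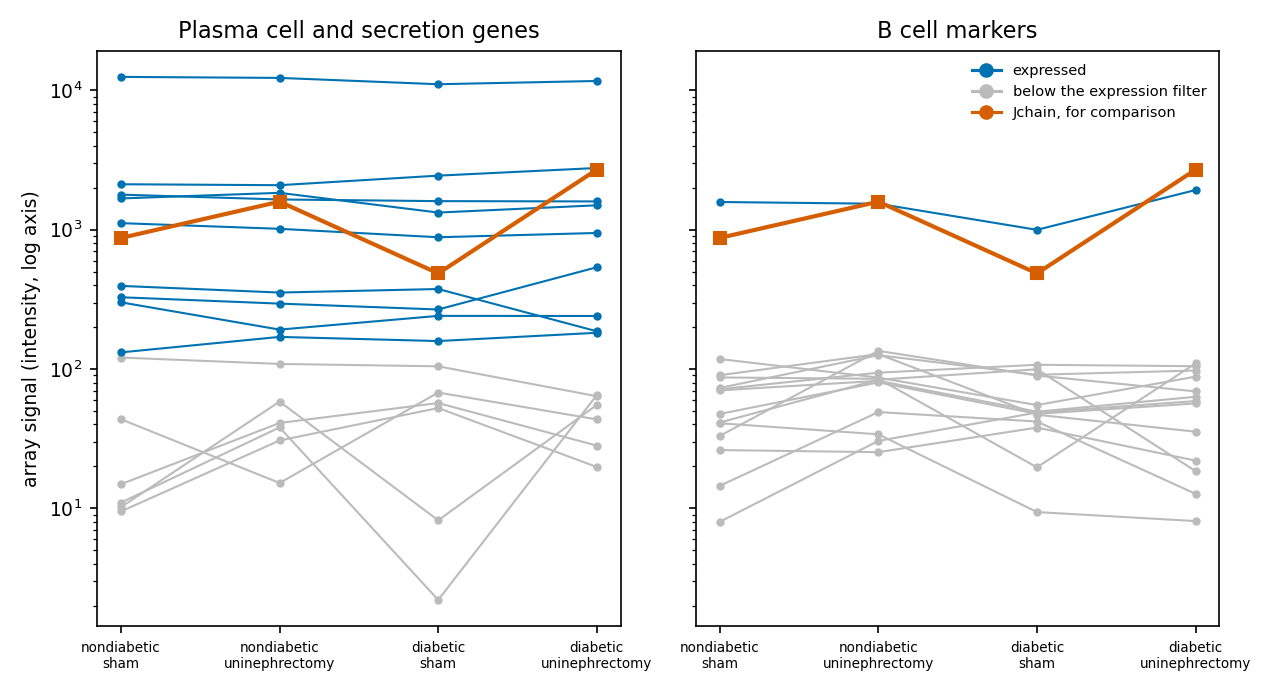
Array signal (intensity, log axis) of each measured gene of the plasma cell list (left) and the B cell list (right) in the 4 groups, blue where expressed and grey below the filter, with Jchain in orange for comparison. With uninephrectomy in diabetic mice Jchain runs from 486 to 2699.9, while the expressed plasma cell genes have log2(signal + 26.4) differences between -0.92 and 0.94. All B cell markers but Blnk lie below the filter.

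Factors that attract, sustain or class-switch B and plasma cells differed in single members. Of 18 listed genes 17 were measured and 6 expressed. Ccl28, the epithelial chemokine that draws IgA plasma cells to mucosae, read 647.2 in nondiabetic sham, 786.8 in nondiabetic uninephrectomy, 803.1 in diabetic sham and 1859.1 in diabetic uninephrectomy mice. Of the 6 expressed genes it was the only one past 2-fold with uninephrectomy in diabetic mice (log2 difference 1.19) and with diabetes in uninephrectomised mice (1.21), and Jchain too was highest on that array. Unlike Jchain, Ccl28 was not lowest in diabetic sham mice. The gene of its receptor, Ccr10, was unexpressed and read 9.1 to 71.3. Tgfb1, which promotes switching to IgA, read 66.9 in nondiabetic sham, 135 in nondiabetic uninephrectomy, 191.6 in diabetic sham and 148.5 in diabetic uninephrectomy mice. Its log2 difference with diabetes among sham mice was 1.22, and its nondiabetic sham signal lay below the expression filter. Cxcl12, a niche chemokine of plasma cells, lay between 4238 and 5830, lowest in diabetic uninephrectomy mice. Cd40 read 102.1 to 161.1. The survival factor gene Tnfsf13b, encoding BAFF, was unexpressed at 79.5 to 125.9, and Il6 read 14.5 to 84.2.

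Of 15 listed genes of other immunoglobulin receptors and their partners all were measured and 9 expressed. With diabetes none of the 9 expressed genes was lower by as much as Pigr on either probe set. The IgE receptor gene Fcer2a, unexpressed at 35.5 to 128, had log2 differences of -0.67 and -1.32 (sham, then uninephrectomised). Fcgrt, the neonatal Fc receptor that recycles IgG, read 4676.7, 5032.6, 4293.7 and 3701.3, with log2 differences of -0.12 and -0.44 with diabetes. The IgG receptor Fcgr2b, which inhibits, read 2063.7, 2420.1, 1391.1 and 1855.5 over the 4 groups. Fcer1g, the signalling chain of activating Fc receptors, was 3.55-fold higher in diabetic uninephrectomy than in diabetic sham mice (457.7 and 128.8), and Lgals3, the IgE-binding lectin galectin-3, was 2.08-fold higher (4820.5 and 2320.2). These were the 2 expressed genes of the list past 2-fold with uninephrectomy in diabetic mice. Fcgr3 read 332.6 there and 156.5 to 185 on the other arrays. Fcamr, the receptor for IgA and IgM related to Pigr, was unexpressed, between 4 and 50.1, and had a log2 difference of -1.33 with uninephrectomy in diabetic mice.

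Genes of the pathways known to act on Pigr transcription were mostly expressed. Of 23 listed genes 18 were measured and 17 expressed, and the medians over the expressed genes were 0.07 and 0.06 with diabetes and 0.06 and -0.01 with uninephrectomy. Relb, an NF-kappaB subunit, was the only one of the 17 past 2-fold, with diabetes in sham mice (log2 difference 1.40), where Pigr was lower. Relb read 56, 95, 191 and 151.7 over the groups, close to the expression filter, which it passed only through the diabetic arrays. The 1 unexpressed gene, the interleukin 1 receptor gene Il1r1, read 39.3, 21.7, 41.1 and 228.5 and had the widest differences of the list, 2.41 with diabetes in uninephrectomised mice and 1.92 with uninephrectomy in diabetic mice. Irf1, an interferon-induced factor, had log2 differences of -0.32 and -0.27 with diabetes (sham, then uninephrectomised). The E-box binding factor genes Usf1 and Usf2 had 0.16 and 0.10, and -0.05 and 0.22. The glucocorticoid receptor gene Nr3c1 had -0.31 and -0.33. Ifngr1 read 457.3, 890, 734.6 and 812.4, Ifngr2 377.1, 317.6, 418.2 and 479.3, and Tlr4 102.1, 117.1, 102.8 and 159.4 over the 4 groups.

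Epithelial markers bear on the level of Pigr, since fewer cells carrying it and less RNA in each cannot be told apart here. Of 12 expressed thick limb and distal tubule genes 0 were past 2-fold with diabetes in sham mice, where Pigr had -0.95, and the list median there was -0.04. In uninephrectomised mice the median was -0.29 and 1 gene was past 2-fold, the calcium-binding protein gene Pvalb (-1.11). Egf read 36518.8, 38379.2, 31757.9 and 20209.8, and the sodium chloride cotransporter gene Slc12a3 read 7411.3, 8022.9, 6456.6 and 4305.1. Cldn10 had log2 differences of -0.49 and -0.27 with diabetes. The 14 collecting duct genes had medians of -0.04 and -0.07 with diabetes. The water channel gene Aqp4 had -1.24 and 0.17, farther below 0 than Pigr among sham mice, with signals of 5295.7, 2305.1, 2220.8 and 2596.1 over the groups. Also among them were Slc26a4, the anion exchanger of intercalated cells, at -0.32 and -1.37 and another water channel gene, Aqp2, at 0.30 and 1.29. Slc4a1 and Atp6v1b1, also of intercalated cells, were at -0.01 and -0.41, and at -0.45 and -0.86. The 13 proximal tubule genes had medians of 0.08 and -0.48 with diabetes. Among them Slc22a8 was at -0.17 and -1.28, Miox at -0.21 and -0.65, Kap at -0.58 and -0.80 and Cyp2e1 at 0.92 and -0.05. The 5 podocyte genes had medians of -0.11 and -0.42, with the slit diaphragm gene Nphs1 at -0.54 and -1.33, Podxl at 0.04 and -0.42, Synpo at 0.53 and -0.10 and Ptpro at -0.11 and -0.61. The part of these markers in the Pigr values was not tested.

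Other genes of epithelial defence went both ways with diabetes among uninephrectomised mice, where Pigr was lower. Of 16 listed genes 10 were expressed. In that comparison 4 were at least 2-fold higher and 0 lower, beside 2.14% and 1.03% of all expressed genes. Of the 10, 6 were above 0, and those below were Slpi (-0.42), Umod (-0.41), Defb1 (-0.225) and Spink1 (-0.09). The iron-binding lipocalin gene Lcn2 read 41.7, 5.7, 224.5 and 3374.4, and it passed the expression filter only through the diabetic arrays. The lysozyme genes Lyz1 and Lyz2 read 10546.8 and 5042.8 in diabetic uninephrectomy mice and at most 2262.7 and 1010.8 elsewhere. These are near-identical copies, so their probe sets may share RNA, and Lyz2 is also a macrophage gene. The protease inhibitor gene Slpi was higher after surgery, with 105.3, 231.7, 83.7 and 166, and it passed the filter only through the operated arrays.

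**Figure D4:**
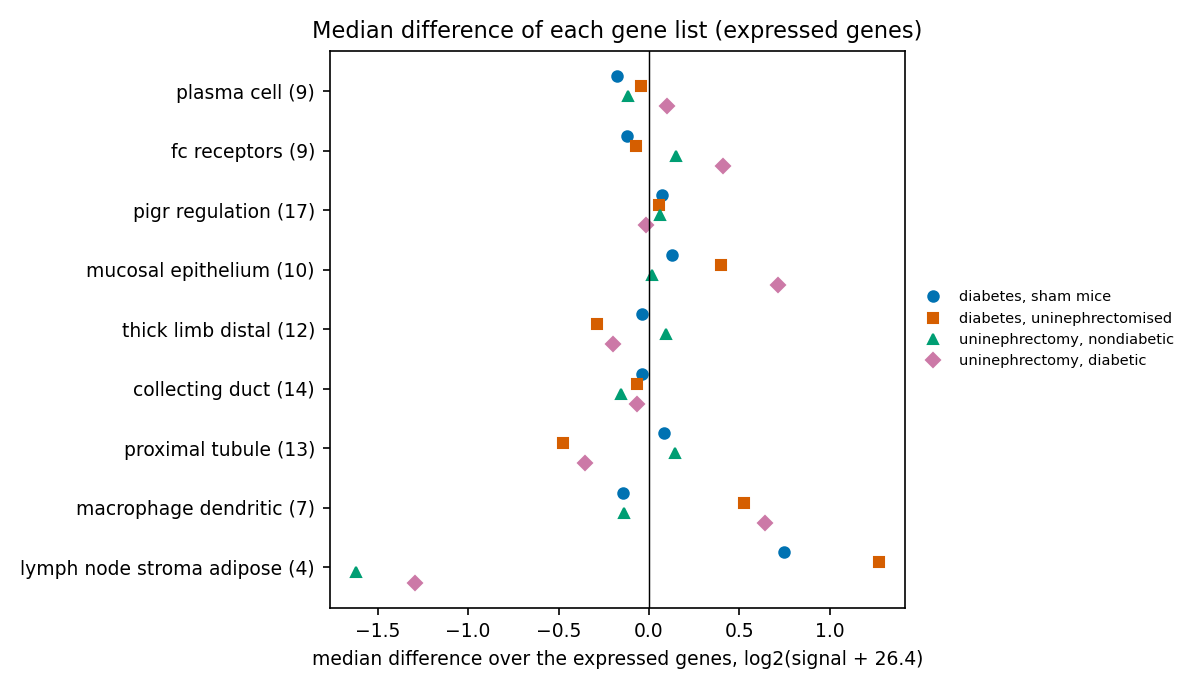
Median log2 difference over the expressed genes of 9 lists (number of expressed genes in parentheses) in the 4 comparisons. The plasma cell and Pigr regulation lists lie between -0.17 and 0.10 in all 4. The list of lymph node and fat tissue genes is lowest after uninephrectomy. Its expressed genes are Adipoq, Car3, Fabp4 and Prox1, and the lymph node genes Glycam1, Madcam1 and Cr2 are below the filter.

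Markers of other immune and blood cells, and of lymph node, lymphatic and fat tissue, were counted over each whole list. Of 13 macrophage and dendritic cell genes 7 were expressed, and 3 were at least 2-fold higher and 0 lower with uninephrectomy in diabetic mice, the comparison in which Jchain differed most. They were Lyz2, the protease gene Ctss and Cx3cr1, and the list median there was 0.64, with 6 of the 7 above 0. Cx3cr1 read 191.4, 153.7, 74 and 206 over the 4 groups, and its diabetic sham signal lay below the expression filter. Csf1r, the brightest gene of the list, read 6557.7, 5092.9, 5928.5 and 5181.9. It was lower with uninephrectomy in both nondiabetic (-0.36) and diabetic mice (-0.19). The median with uninephrectomy in nondiabetic mice was -0.14, and 2 of the 7 were above 0, Adgre1 (0.70) and Mrc1 (0.36). Adgre1, the macrophage antigen F4/80, read 203.7, 348.5, 226 and 363.8. Mrc1 read 194.2, 256.5, 272.9 and 440.9 over the 4 groups. The list sum was 9728, 8319, 9058 and 15043 in this order. Of 8 measured red cell, platelet and neutrophil genes 2 were expressed, Slc4a1, which intercalated cells also express, and the platelet gene Pf4 (221.9 to 436.7), and the sums lay between 1820 and 2425. Of 12 lymph node, lymphatic and fat tissue genes 8 were measured and 4 expressed. The sum of the 8 was 14458 in nondiabetic sham, 5458 in nondiabetic uninephrectomy, 26263 in diabetic sham and 13307 in diabetic uninephrectomy mice. The sum came mainly from the fat cell genes Car3 and Fabp4, so it says little of lymph node genes. Car3 read 7397.7, 1228.9, 14557.5 and 2874.3 over the 4 groups, and Fabp4 read 5923.4, 3908.7, 10019.9 and 9898.8. Adipoq read 817.3, 66.2, 1379.8 and 293.5. The high endothelial venule gene Glycam1, a marker of lymph nodes, read 2.1 to 11.5, and Prox1, of lymphatic endothelium and also of tubule cells, read 76.6 to 155. The part of these cells in the immunoglobulin values was not tested.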

How the data were processed

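Gene expression in kidney was measured on 4 arrays of 1 pooled RNA each. Per the labels' protocols, RNA was extracted with TriZol, pooled from 4 mice a group, and 100 ng was labelled with the 3' IVT Express kit. The deposited intensity values are 1 per probe set, linear and scaled by the authors, since every array has a mean of 500.003 once 2% of values are trimmed at either end. The software is not given in the sources used here.

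Symbols came from the platform annotation, with 1 for 34945 probe sets, several for 932 and none for 9160, and 64 control probe sets were left out. No further normalisation was applied. The offset of 26.4 is the 20th percentile of all values and makes differences of dim probe sets smaller. In gene lists the brightest probe set on average stands for its gene, and 11197 of 18193 genes were expressed. Differences were counted at 2-fold. No test was run, since each group has 1 array and the members were chosen from these data. The members and the 14 gene lists were chosen with earlier results of these data known. Named genes were the expressed members, up to 4 genes of each list that differed most on average with diabetes or surgery, and the 5 genes closest to Jchain and Pigr. Further list genes are given for their role and were picked after their values were seen. Python 3.11.15, pandas 2.3.3 and numpy 2.4.6 were used, and the counting step was tested on simulated data. Alternatives changed the offset, scaling, filter, threshold and the choice of probe sets.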

Additional observations from a re-analysis of the deposited data

Results flagged for a closer look

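The Jchain difference with diabetes had opposite signs in the 2 surgery arms, each past 1.5-fold. It was -0.81 in sham and 0.75 in uninephrectomised mice, so that the latter exceeded the former by 1.57 on the log2 scale. The difference between the arms was not tested.

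Probe set 1452557_a_at carries the symbol Igk, which the choice of members leaves out. It read 93.5 in nondiabetic sham, 141.3 in nondiabetic uninephrectomy, 69.3 in diabetic sham and 233.4 in diabetic uninephrectomy mice. It drew attention because its log2 value in diabetic uninephrectomy mice exceeded the nondiabetic sham control by 1.12. The probe set passed the expression filter only through the operated arrays.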

How the results depend on the processing

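The 96 alternative values of the log2 differences of Jchain, of Pigr, of Pigr minus Jchain and of the immunoglobulin median moved by less than 1.5-fold, with 1 exception, and 0 values past 2-fold changed sign. The exception was the immunoglobulin median with uninephrectomy in diabetic mice, which was 0.38 with no filter on low values, where 51 probe sets enter in place of 11. With diabetes in sham mice this median, -0.48 as reported, was -0.05 with no filter and -0.08 with a filter on the highest of the 4 values. With uninephrectomy in nondiabetic mice it was 0.20 with no filter in place of 0.73. The size of these medians thus depended on the filter. Over the alternatives the Jchain difference with uninephrectomy in diabetic mice ranged from 2.31 to 2.49, and the Pigr difference with diabetes from -1.03 to -0.83 in sham and from -1.26 to -1.12 in uninephrectomised mice. The Pigr difference with uninephrectomy in diabetic mice ranged from -0.06 to 0.14 and so has no settled sign.

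Counts past 2-fold depended on the settings. The members counted were 14 as reported and at 1.5-fold, 54 with no filter and 21 with a filter on the highest of the 4 values. They were 15 with an offset of 1 and 6 with each gene by its highest probe set. The share of all probe sets or genes past 1.5-fold was not taken, so the counts at 1.5-fold have no background here. For the members, the count (either direction) with diabetes in sham mice, 0 as reported, was 1 with arrays centred on their medians, 7 with no filter, 2 with a filter on the highest of the 4 values and 8 at 1.5-fold. With diabetes in uninephrectomised mice the 2 became 8 with no filter, 4 with a filter on the highest value, 4 at 1.5-fold and 1 with each gene by its highest probe set. With uninephrectomy in nondiabetic mice the 1 became 2 with an offset of 1, 2 with quantile normalisation, 8 with no filter, 5 with a filter on the highest value and 9 at 1.5-fold. With uninephrectomy in diabetic mice the 9 became 17 with no filter and 4 of 6 with each gene by its highest probe set.

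For all genes of the 14 lists together, the count with diabetes in sham mice, 5 as reported, was 3 with an offset at the 40th percentile, 13 with no filter, 1 with a filter at the 75th percentile, 12 at 1.5-fold and 3 with a gene's probe sets averaged. The genes counted were 106 as reported and at 1.5-fold, 174 with no filter, 73 with the filter at the 75th percentile and 95 with probe sets averaged. With diabetes in uninephrectomised mice the 15 became 28 with no filter and 30 at 1.5-fold. With uninephrectomy in nondiabetic mice the 4 became 15, 2 and 13 with no filter, the filter at the 75th percentile and 1.5-fold, and in diabetic mice the 11 became 25, 7 and 31. Use of probe sets with 1 symbol only, chosen after seeing the data, gave immunoglobulin medians of -0.31, 0.31, 0.70 and 1.42 and counts of 0, 2, 1 and 6 in the order of the comparisons above. No paired analysis was possible because each group has 1 array. Signals near the offset of 26.4 limit what the 40 unexpressed members can show.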

Other observations

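Lambda light chains, a minor class in mice, lay below the filter, and their values were looked at after they were seen. The 4 lambda probe sets summed to 42.4 in nondiabetic sham, 86.9 in nondiabetic uninephrectomy, 155 in diabetic sham and 224.1 in diabetic uninephrectomy mice, so that diabetic sham was not the lowest group as it was for kappa chains. The brightest, 1430523_s_at for Iglv1, read 14.3, 31.7, 52.6 and 110.8 in that order. Among unexpressed Ighm probe sets, 1425324_x_at read 34.6, 104.7, 41.9 and 141.6, and 1427756_x_at read 30.5, 130.2, 39.8 and 112.7, both higher on the operated arrays. Igll1, a surrogate light chain gene of B cell precursors outside the choice of members, read 177.6, 49.1, 63.4 and 134.5 on its brighter, unexpressed probe set.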
